A study of Rattus norvegicus with 3 samples.

Results

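The coreceptor genes Cd4, Cd8a and Cd8b and the lineage factor genes Zbtb7b and Runx3 were followed through the stages of rat thymocyte development. These 5 genes, of 34034 features counted, were chosen by name for their known place in the choice between the CD4 and the CD8 lineage. All 5 were found in the count table. In the comparisons across all genes, all 5 passed the filter on low values, except Zbtb7b in the comparison of DP-sig with DP cells. The cells came from Lewis rats, an inbred strain, aged 8 weeks, whose thymus tissue was minced and digested with DNase I and collagenase D. The labels name no allele, treatment or other agent, and do not say how many animals were pooled. The RNA was counted in 1 droplet library made with the 10x Genomics system. Each thymocyte stage is therefore a set of cells from 1 library, with no replicate, so differences are given with counting error and without a test.

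CD4 and CD8 are surface proteins that bind MHC class II and class I molecules and bring the kinase Lck to the T cell receptor. CD8 is a dimer of an alpha chain, encoded by Cd8a, and either a beta chain, encoded by Cd8b, or another alpha chain. Thymocytes start without either coreceptor (double negative, DN), gain both (double positive, DP), are selected through their receptor, and keep 1 of them (single positive). Zbtb7b encodes ThPOK, the zinc finger protein that CD4 lineage cells need. Runx3 encodes a Runt family protein that silences Cd4 and supports CD8 genes in the CD8 lineage. The factors are known to repress each other.

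The library held 8574 barcodes, of which the authors annotated 8546, with 64440495 unique molecular identifiers (UMIs, tags that let each captured molecule be counted once) and a median of 3994 per cell. Types were the authors' projected labels, given to 8362 cells by comparison with reference data. Their cluster name was used for the other cells, of which 170 formed a cluster of B and myeloid cells and 14, spread over other clusters, were left out of the levels by label. This gave 22 labels, 21 of them with at least 20 cells. Median depth per label ran from 3205.5 UMIs in DP to 23597 in Mature cycling T. Levels are CPM, the UMIs of a gene per 1000000 UMIs of the label, and the ranges in parentheses are 95% intervals that cover counting error alone. The labels rest on RNA of the same cells, so a level per label is a description. Barcodes shared with annotated cells of the stromal library of the same series numbered 28.

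Of the 5 genes, 3 had a promoter entry in the RefSeq table of build GRCr8, a newer assembly than the one named for the counts. Runx3 has 2 annotated starts, and they are shown because counts per gene do not tell which start was used. Each line gives the 250 bases before a start, 5′ to 3′, with the Runx core motif TGTGGT, or ACCACA on the opposite strand, in capitals. The first line is chr5:152644020-152644269 and the second chr5:152677396-152677645, both on the plus strand.
Runx3 upstream start: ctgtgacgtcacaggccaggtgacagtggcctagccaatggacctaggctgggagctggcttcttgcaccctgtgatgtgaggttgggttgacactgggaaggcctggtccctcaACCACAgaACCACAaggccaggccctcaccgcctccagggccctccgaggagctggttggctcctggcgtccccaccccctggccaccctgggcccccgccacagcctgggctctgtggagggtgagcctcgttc
Runx3 downstream start: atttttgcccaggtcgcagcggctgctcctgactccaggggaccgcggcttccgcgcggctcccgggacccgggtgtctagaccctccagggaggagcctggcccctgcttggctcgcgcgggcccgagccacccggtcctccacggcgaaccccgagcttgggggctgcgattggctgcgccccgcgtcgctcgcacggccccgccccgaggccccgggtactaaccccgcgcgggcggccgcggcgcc
The upstream window held 2 matches, starting 135 and 127 bases before the start, and the downstream window held 0. The 250 bases before the Cd8a start, chr4:104923866-104924115 on the plus strand, held 0. The window of Zbtb7b, chr2:177097177-177097426 on the minus strand, held 1 match at position -209 from the start. This window reads like coding sequence and was not checked against a gene model. It is therefore not shown, and its match is not read as a promoter match. Of 33469 such windows in the table, 14.5% held at least 1 match and 1.44% held 2 or more.

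**Figure D1:**
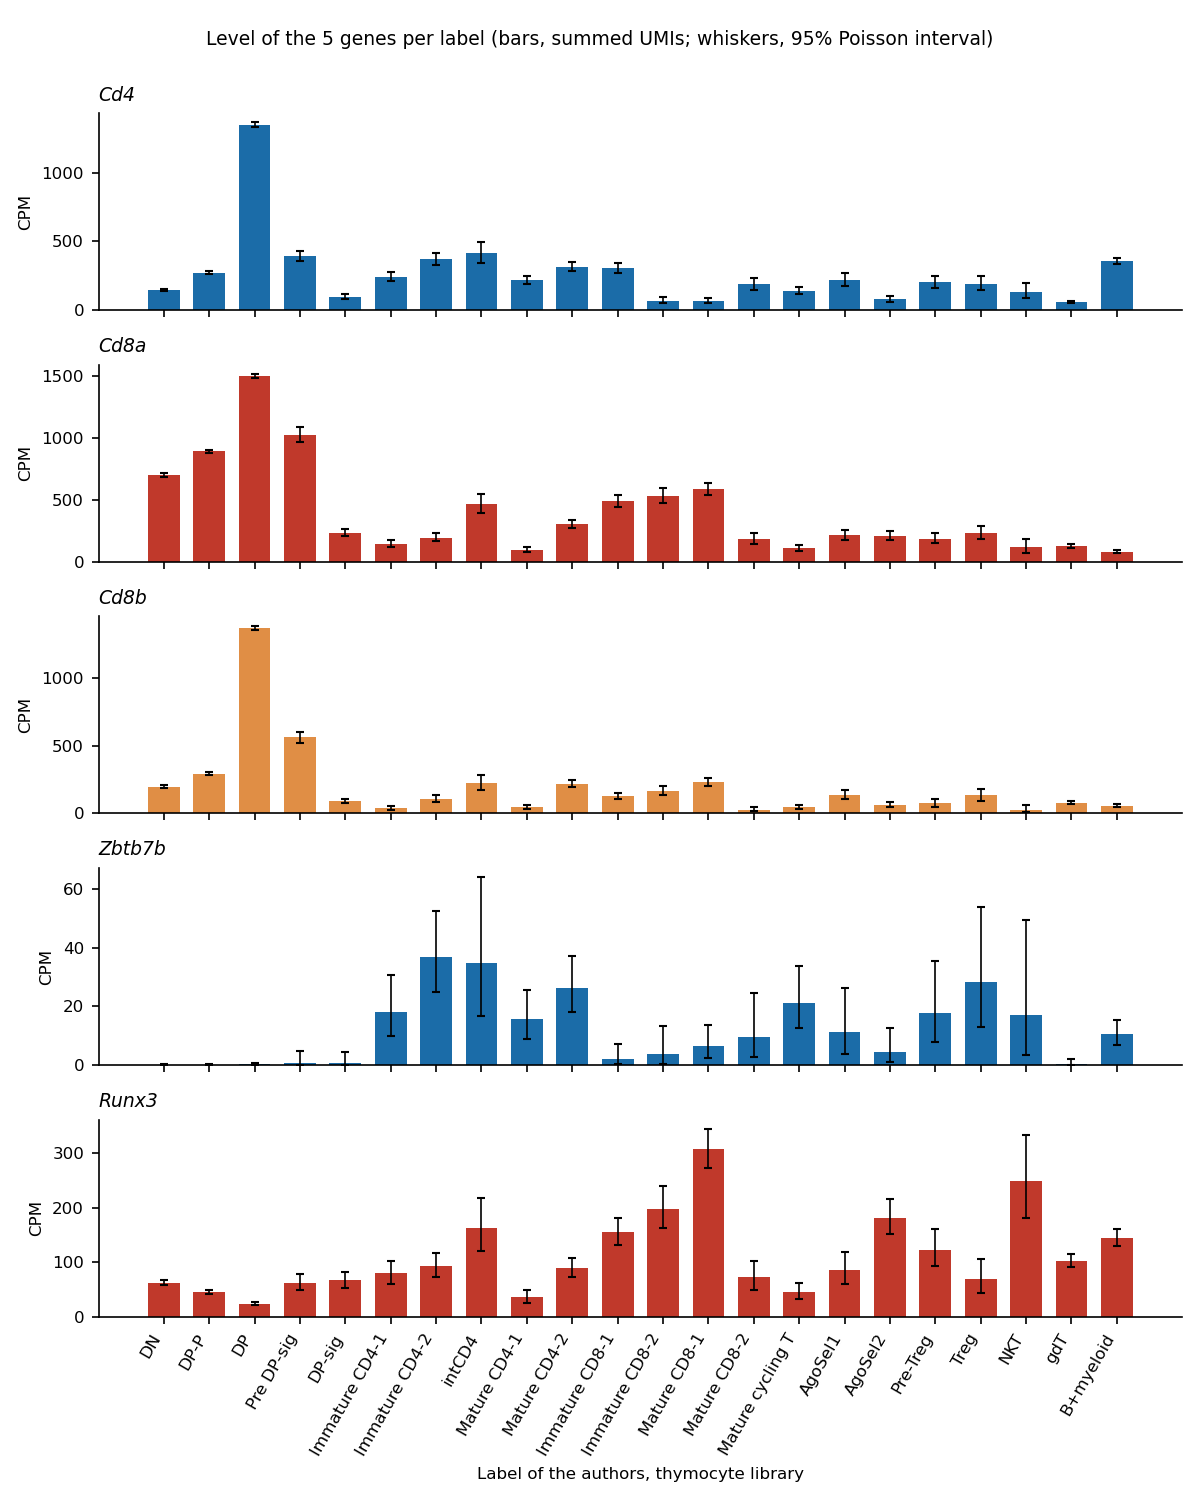
Level of Cd4, Cd8a, Cd8b, Zbtb7b and Runx3 in each label of the thymocyte library (x axis), as CPM on a linear axis from 0 (y axis, a scale of its own for each gene). Bars are summed UMIs and whiskers 95% Poisson intervals. The 3 coreceptor genes peak in DP, Zbtb7b is near 0 up to DP-sig, and Runx3 is lowest in DP and highest in Mature CD8-1.

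Before selection, the CPM of each coreceptor gene was higher from the label DN to the label DP-P and again to DP, where all 3 had their highest level. CPM is a share of all UMIs, and median depth was 23190 UMIs in DN, 15439 in DP-P and 3206 in DP. Median UMIs per cell in these labels were 17, 16 and 5 for Cd8a, 3, 4 and 4 for Cd4, and 4, 5 and 5 for Cd8b. The rise is thus one of share, and the part of depth in it was not tested. In the 390 DN cells Cd4 stood at 150 CPM (143 to 157), in the 848 DP-P cells at 274 CPM (266 to 282) and in the 5202 DP cells at 1350 CPM (1334 to 1367), so that DP exceeded DN 9.02-fold (8.58 to 9.49). Cd8a stood at 702, 892 and 1497 CPM in the same labels, a span of 2.13-fold (2.08 to 2.19). Cd8b stood at 198, 295 and 1372 CPM, a span of 6.92-fold (6.62 to 7.23). The span of Cd8b was thus nearer to that of Cd4 than to that of Cd8a, its partner chain.

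The name DN did not match the Cd8a and Cd8b RNA of its cells, while their Cd4 RNA differed by cluster. A Cd8a UMI was found in 96.4% of them (94.1 to 98.0), a Cd8b UMI in 85.1% and a Cd4 UMI in 74.4% (69.7 to 78.6). At a fixed depth of 1000 UMIs per cell, 53.6% of DN cells still held Cd8a, against 16.6% in DP-sig and 7.44% in Mature CD4-1. Cd4 was held by 19.7% of DN cells at this depth, against 7.46% in DP-sig and 19.0% in Mature CD4-1. In 35 cells with B cell markers, which serve as background further on, 14.3% held Cd8a as deposited, at a median of 11081 UMIs against 23190 in DN. These B marker cells had Cd4 at 38.0 CPM (22.1 to 60.8) and Cd8a at 42.4 CPM (25.6 to 66.3). The authors' own clusters split the label. The 192 DN-labelled cells of the DN cluster had Cd4 at 57.2 CPM (52.1 to 62.8) and Cd8a at 465 CPM. That Cd4 interval overlapped the one of the B marker cells, but the depths differed. A Cd4 UMI was found in 52.6% of these 192 cells (45.3 to 59.8), at a median of 37879 UMIs. Among the B marker cells it was found in 7 of 35 (8.44% to 36.9%), at a median of 11081 UMIs. Whether Cd4 in the 192 cells lay above background was not tested. The 151 DN-labelled cells in the cluster named DP-P2 had Cd4 at 374 CPM and Cd8a at 1286 CPM. The DN label also held Rag1, the recombinase gene used when receptor chains are rearranged, at 150 CPM in the first of these groups and 702 CPM in the second. Its cells are called DN-labelled below.

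Between DP and the signalled label DP-sig, the coreceptor genes were lower and Runx3 was higher. In Pre DP-sig (325 cells) Cd4 was at 393 CPM, Cd8a at 1025 and Cd8b at 562, all between the levels of DP and DP-sig. In the 295 DP-sig cells Cd4 was at 98.6 CPM (82.2 to 117), a ratio to DP of 0.0730 (0.0608 to 0.0869). Cd8a was at 234 CPM, a ratio of 0.156 (0.139 to 0.175). Cd8b was at 90.0 CPM, a ratio of 0.0656 (0.0542 to 0.0787), so the drop was smallest for Cd8a. Runx3 was at 66.7 CPM against 24.1 in DP, 2.77-fold higher (2.17 to 3.49). Zbtb7b gave 1 UMI in DP-sig and 6 in DP, too few for a fold.

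Both labels were made from the same RNA, so these shares are descriptions. Genes past 2-fold were common in this comparison: of 12327 genes with at least 20 UMIs in both labels together, 9.80% were at least 2-fold higher in DP-sig and 8.60% at least 2-fold lower. Of the 4 members counted, Runx3 was higher and the 3 coreceptor genes were lower. The median fold over all genes was 1.07. The coreceptor signalling list (Lck, the CD3 chains, Zap70, Lat and Ptprc) had 0 of 8 genes past 2-fold in either direction and a median of 1.01. Of 14 known regulators of the coreceptor genes, Runx2 was 2.63-fold higher and Smarca4, a chromatin remodelling ATPase, was at 0.359 of its DP level. The E protein gene Tcf12 was at 0.375 of its DP level, and the list's median was 1.29. Of 7 cytokine receptor and signalling genes linked to CD8 commitment, Il7r, Stat5a and Jak3 were higher and Il4r and Jak1 lower, with a median of 1.88. Il7r, the IL-7 receptor chain, was at 6.99 CPM in DP-sig on 9 UMIs and at 1.27 CPM in DP. Of 9 CD4 lineage genes, with a median of 1.24, Tox, a factor needed for that lineage, stood 15.6-fold higher and Gata3 3.69-fold higher, while Socs1, a cytokine signalling inhibitor, was at 0.326 of its DP level. Of 6 CD8 lineage genes with enough UMIs, with a median of 2.15, Il2rb, Cd160 and Ctsw were past 2-fold higher. Il2rb gave 33 UMIs in DP-sig and 1 in DP, a ratio of 484 (81.1 to 19708), and the interval for Ctsw (0.535 to 5.99) included 1.

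**Figure D2:**
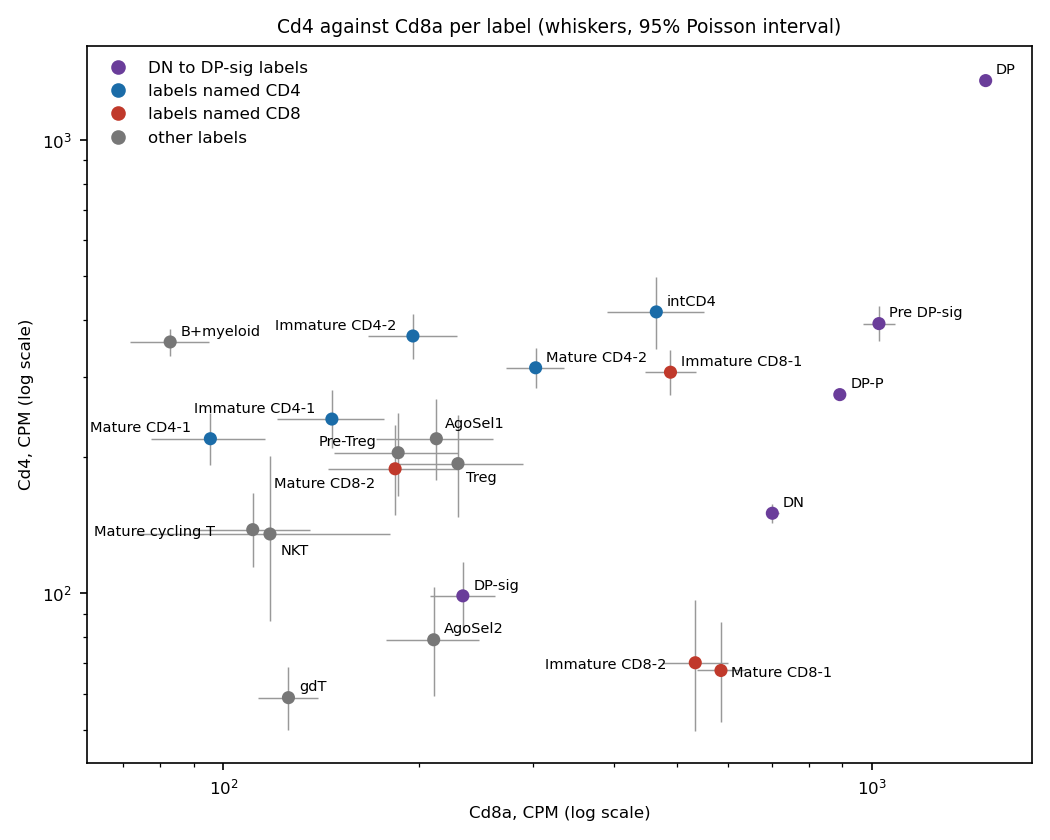
Cd4 (y axis) against Cd8a (x axis) per label, both as CPM on log axes, with 95% Poisson whiskers and 1 point for each of the 22 labels. DP lies at the upper right, DP-sig at 98.6 and 234 CPM, and the labels named CD8 lie at 489 to 585 CPM of Cd8a, except Mature CD8-2 at 184 CPM.

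After DP-sig the levels of Cd4 were higher again in both lineages at first. In Immature CD4-1 (133 cells) Cd4 was at 242 CPM, 2.46-fold above DP-sig (1.95 to 3.11), and in Immature CD4-2 (103 cells) at 369 CPM. In Immature CD8-1 (194 cells) Cd4 was at 307 CPM, 3.11-fold above DP-sig (2.52 to 3.86), and 67.5% of its cells held a Cd4 UMI. Cd4 was then at 70.2 CPM in Immature CD8-2 (62 cells), 4.37-fold below Immature CD8-1 (3.11 to 6.30), and at 67.5 CPM in Mature CD8-1 (91 cells). The label Immature CD8-1 therefore held Cd4 RNA at a level inside the range of the labels named CD4, which ran from 219 CPM in Mature CD4-1 to 417 in intCD4.

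Cd8a was lower in both Immature CD4 labels than in both Immature CD8 labels, but not every label followed its name. Cd8a was at 147 CPM in Immature CD4-1, 0.630 of the DP-sig level (0.503 to 0.785), and at 489 CPM in Immature CD8-1, 2.09-fold above it (1.81 to 2.43). Along the CD8 labels it went on to 534 CPM in Immature CD8-2 and 585 CPM (538 to 636) in Mature CD8-1, steps whose intervals include 1. In intCD4 it was at 465 CPM (390 to 551), which Immature CD8-1 exceeded by a ratio of 1.05 (0.866 to 1.28), so these labels were not separated. In Mature CD4-1 (121 cells) it was at 95.5 CPM (77.4 to 116), the second lowest of the 21 labels. Cd8b stood at 128, 168 and 232 CPM in Immature CD8-1, Immature CD8-2 and Mature CD8-1. It was at 40.4 CPM in Immature CD4-1 and 46.3 CPM in Mature CD4-1.

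The ratio of Cd8a to Cd8b UMIs was not constant. It was 3.54 (3.37 to 3.72) in DN-labelled cells, 3.03 in DP-P and 1.09 (1.07 to 1.11) in DP. It was 1.82 in Pre DP-sig, 2.59 in DP-sig, 3.82 (3.13 to 4.68) in Immature CD8-1, 3.18 in Immature CD8-2 and 2.52 (2.15 to 2.96) in Mature CD8-1. DP thus had the lowest ratio of these labels. Since the genes differ in length and in how their transcripts are captured, the ratio is compared between labels and says nothing of how many molecules of each there are.

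Zbtb7b was close to 0 in every label up to DP-sig. It gave 0 UMIs in the 390 DN-labelled cells, where 3 UMIs would stand for 0.277 CPM, 3 in DP-P, 6 in the 5202 DP cells and 1 each in Pre DP-sig and DP-sig. Among the labels named CD4 it stood at 18.2 CPM in Immature CD4-1, 36.8 CPM (24.8 to 52.5) in Immature CD4-2, 34.7 in intCD4, 15.7 in Mature CD4-1 and 26.3 in Mature CD4-2. Among the labels named CD8 it stood at 2.03, 3.70, 6.33 and 9.67 CPM, on 2 to 6 UMIs each. No label named CD8 reached the lowest of the labels named CD4, Mature CD4-1, but the mature ones were not separated from it. Mature CD8-1 had a ratio to it of 0.402 (0.129 to 1.08) and Mature CD8-2 of 0.614 (0.149 to 1.90). The B marker cells, at 8.94 CPM on 4 UMIs, lay in the range of the CD8 labels. Treg, at 28.4 CPM, and Mature cycling T, at 21.3 CPM, lay in the range of the CD4 labels.

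Within Immature CD4-1 the level differed between clusters. Its 96 cells in the authors' Early SP cluster had 2 Zbtb7b UMIs, or 3.92 CPM (0.475 to 14.2), and its 35 cells in the Mature SP cluster had 12, or 47.8 CPM (24.7 to 83.4). Cd4 was at 237 CPM in the first group and 251 CPM in the second, so the groups differed in Zbtb7b with Cd4 at similar levels. All 177 Immature CD8-1 cells of the Early SP cluster together held 2 Zbtb7b UMIs.

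Runx3 had its lowest level in DP, at 24.1 CPM (21.9 to 26.4), and its highest in Mature CD8-1, at 307 CPM (273 to 344). Along the CD8 labels it stood at 155 CPM in Immature CD8-1, 198 in Immature CD8-2 and 307 in Mature CD8-1, the last step being 1.55-fold (1.24 to 1.96). Mature CD8-1 exceeded Mature CD4-1, at 35.4 CPM, 8.66-fold (6.11 to 12.6). Runx3 was not confined to CD8 labels: intCD4 had 163 CPM, AgoSel2 had 181 CPM, and the 18 NKT cells 248 CPM. Cells with a Cd8 and no Cd4 UMI held 33 of 47 Runx3 UMIs in intCD4 and 65 of 126 in AgoSel2. In NKT they held 17 of 44. DN-labelled cells had 62.1 CPM, 2.58-fold above DP (2.28 to 2.91).

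In the order of the 21 labels with at least 20 cells, most neighbours could not be told apart by counting error. The interval of the ratio between neighbours lay above 1 in 3 of 20 steps for Cd4, 6 for Cd8a, 3 for Cd8b, 3 for Runx3 and 0 for Zbtb7b. For Cd4, DP exceeded the next label, intCD4, 3.24-fold (2.71 to 3.91), and the labels from intCD4 at 417 CPM to Immature CD4-2 at 369 CPM were not separated. For Cd8a the first 4 places were DP, Pre DP-sig, DP-P and DN, each separated from the next. For Cd8b, DP exceeded Pre DP-sig 2.44-fold (2.26 to 2.64). For Zbtb7b the first place of Immature CD4-2 over intCD4 was a ratio of 1.06 (0.504 to 2.43). By the authors' clusters in place of labels, Cd8a was highest in DP-P3, 1.19-fold over DP1, and Runx3 in the B and myeloid cluster, 1.07-fold over Mature SP.

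Comparing the mature labels as the names group them, 248 cells named Mature CD4 and 118 named Mature CD8 differed in 4 of the 5 genes by at least 2-fold. Cd4 was at 272 against 104 CPM, 2.61-fold higher in the CD4 labels (2.17 to 3.15). Cd8a was at 210 against 463 CPM, a ratio of 0.454 (0.402 to 0.512), and Cd8b had a ratio of 0.835 (0.703 to 0.993). Zbtb7b was at 21.6 against 7.34 CPM, 2.94-fold higher (1.47 to 6.51), but 1.82-fold in cells without UMIs of B cell and myeloid markers. Runx3 was at 65.2 against 236 CPM, a ratio of 0.277 (0.226 to 0.337). Of 9025 genes compared, 3.62% were at least 2-fold higher and 2.77% at least 2-fold lower in the CD4 labels. Of the 5 members, Cd4 and Zbtb7b were at least 2-fold higher and Cd8a and Runx3 at least 2-fold lower. The labels rest on RNA of the same cells, so nothing is read from this count.

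In the listed pathways, 1 gene was at least 2-fold higher and 1 at least 2-fold lower in the CD4 labels. Among all 9025 genes compared, the shares were 3.62% and 2.77%, and nothing is read from these counts. Of 10 CD4 lineage genes, Cd40lg, which encodes the ligand that activates B cells and medullary epithelium through CD40, was 3.06-fold higher in the CD4 labels (2.29 to 4.16), at 126 against 41.1 CPM. Of 7 CD8 lineage genes with enough UMIs, Il2rb, the shared receptor chain for IL-2 and IL-15, had a ratio of 0.400 (0.188 to 0.825) on 14 and 21 UMIs. The medians were 1.32 and 0.665 for these lists, against 1.04 over all genes compared. None of 13 coreceptor gene regulators, 8 signalling genes and 7 cytokine receptor genes passed 2-fold, with medians of 1.22, 1.13 and 1.14.

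In the immature labels, 236 cells named CD4 and 256 named CD8, Zbtb7b differed more and Cd4 less. Zbtb7b was at 27.8 against 2.62 CPM, 10.6-fold higher in the CD4 labels (3.86 to 40.6). Cd8a had a ratio of 0.341 (0.296 to 0.393), Runx3 of 0.509 and Cd8b of 0.528, and Cd4 was 1.38-fold higher. Of 8842 genes, 2.57% were at least 2-fold higher and 1.76% at least 2-fold lower in the CD4 labels, and of the 5 members Zbtb7b and Cd8a were past 2-fold. Gata3, which acts before Zbtb7b in the CD4 lineage, was 2.24-fold higher (1.89 to 2.66), Cd40lg 6.63-fold higher, Klrk1 at a ratio of 0.482 and Il2rb at 0.185. These are 2 of 10 CD4 lineage genes, with a median of 1.18, and 2 of 5 CD8 lineage genes, with a median of 0.558. None of 14 regulators, 8 signalling genes and 7 cytokine receptor genes passed 2-fold, with medians of 0.975, 1.02 and 1.08, against 1.02 over all genes. The difference between the immature and the mature comparison was not tested.

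Mature CD4-2 and Mature CD8-2 differed from the first mature labels of their names. Mature CD4-2 (127 cells) had Cd8a at 303 CPM and Cd8b at 220 CPM, 3.17-fold (2.53 to 4.01) and 4.76-fold (3.48 to 6.63) above Mature CD4-1, and 50.4% of its cells held Cd8a. Mature CD8-2 (27 cells) had Cd4 at 188 CPM in 66.7% of cells, Cd8a at 184 CPM in 33.3%, Cd8b at 29.0 CPM and Runx3 at 72.5 CPM. Its Cd4 level was 0.859 of that of Mature CD4-1 (0.655 to 1.12), and its Runx3 level 0.236 of that of Mature CD8-1 (0.156 to 0.345). Of its 27 cells, 15 held Cd4 and no Cd8 UMI (35.3% to 74.5% of cells), against the name of the label. With Mature CD8-1 as the only CD8 label, the Cd4 ratio was 4.03 in place of 2.61. With Mature CD4-1 as the only CD4 label, the ratio was 0.206 in place of 0.454 for Cd8a, 0.272 in place of 0.835 for Cd8b and 0.150 in place of 0.277 for Runx3.

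In Mature CD4-2, Rag1 and Rag2, the recombinase genes of DP cells, moved with the Cd8 genes. The 35 cells with a UMI of either gene had Cd4 at 496 CPM, Cd8a at 556, Cd8b at 502 and a median of 11910 UMIs. The 92 cells without one had 218, 169 and 70.7 CPM and a median of 8496 UMIs. Zbtb7b was at 9.22 CPM (2.51 to 23.6) in the 35 cells, on 4 UMIs, and at 35.4 CPM (23.7 to 50.8) in the 92. Runx3 was at 64.5 CPM (42.9 to 93.3) in the 35 cells and 102 CPM (81.7 to 127) in the 92. Without Rag-positive cells, the ratio of mature CD4 to mature CD8 labels was 0.297 for Cd8a and 0.369 for Cd8b, against 0.454 and 0.835 with them. The 12 Rag-positive of 45 intCD4 cells likewise had Cd8a at 1615 CPM and the other 33 cells 237 CPM. No doublet caller was run, and the part of cell pairs in these values was not tested.

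**Figure D3:**
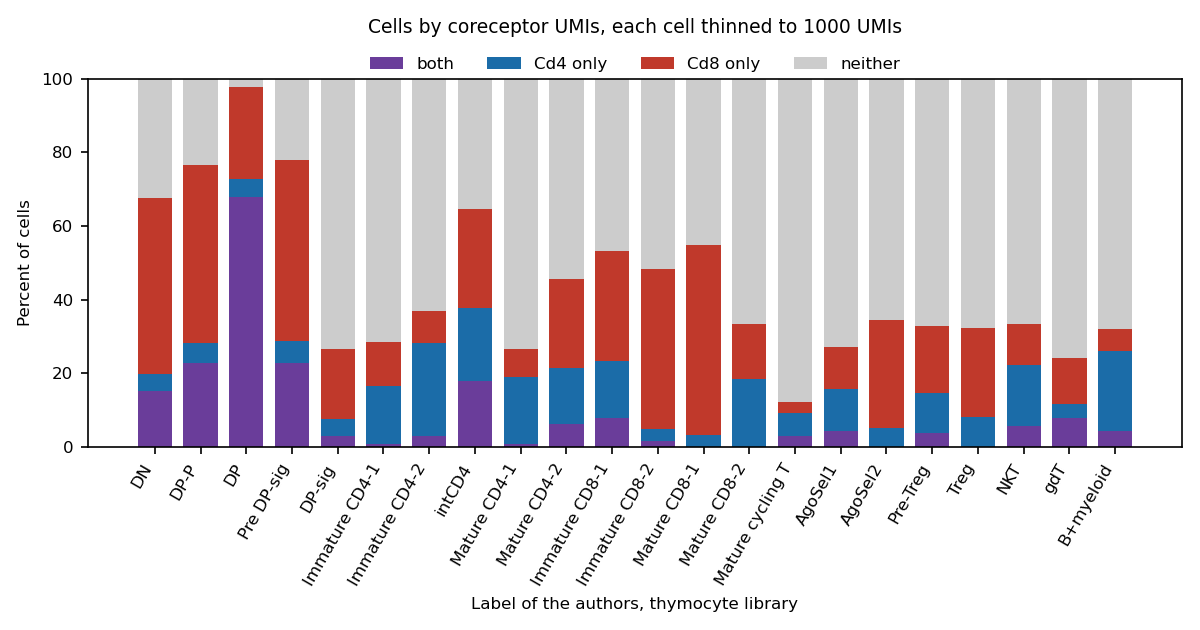
Percent of cells (y axis) of each label (x axis) with a UMI of Cd4 and of a Cd8 gene (both), of Cd4 only, of Cd8a or Cd8b only (Cd8 only) or of neither, after each cell was thinned to 1000 UMIs. Both is the largest class in DP alone, at 67.8%, and neither reaches 73.6% in DP-sig and in Mature CD4-1 and 87.9% in Mature cycling T.

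Within single cells the combination of coreceptors differed by label. In DP, 96.0% of cells (95.4 to 96.5) held UMIs of Cd4 and of a Cd8 gene as deposited, and 67.8% at 1000 UMIs per cell. In DP-sig, 48.1% (42.3 to 54.0) held neither as deposited and 14.9% held both. Cd4 without a Cd8 gene was found in 66.1% (57.0 to 74.5) of Mature CD4-1 cells, and a Cd8 gene without Cd4 in 79.1% (69.3 to 86.9) of Mature CD8-1 cells. At 1000 UMIs per cell these last shares were 18.2% and 51.6%, and 38 DP and 8 B and myeloid cells shallower than this were left out.

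Coreceptor RNA was also found where the gene is not thought to be used, and this sets what a low share can show. In the B and myeloid cluster, 35 cells with a B cell marker and no myeloid marker had Cd4 at 38.0 CPM, Cd8a at 42.4, Cd8b at 44.7 and Rag1 at 33.5, and a Cd4 UMI in 7 of 35 cells (8.44% to 36.9%) at a median of 11081 UMIs. Mature CD8-1 had a Cd4 UMI in 18.7% of cells at a median of 10290 UMIs, and Mature CD4-1 a Cd8a UMI in 14.9% at 7964 UMIs against 14.3% of the B marker cells. Both shares lie at the level of the B marker cells, so neither share alone is read as expression. The Cd8a level of Mature CD4-1, 95.5 CPM (77.4 to 116), lay above the 42.4 CPM (25.6 to 66.3) of the B marker cells, and 12 of its cells, with a Cd8 and no Cd4 UMI, held 87 of its 97 Cd8a UMIs. Immature CD8-1, with Cd4 in 67.5% of cells at a median of 4970 UMIs, lay above the B marker cells. Zbtb7b was at 0 in DN-labelled cells, where the median depth was 23190 UMIs.

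**Figure D4:**
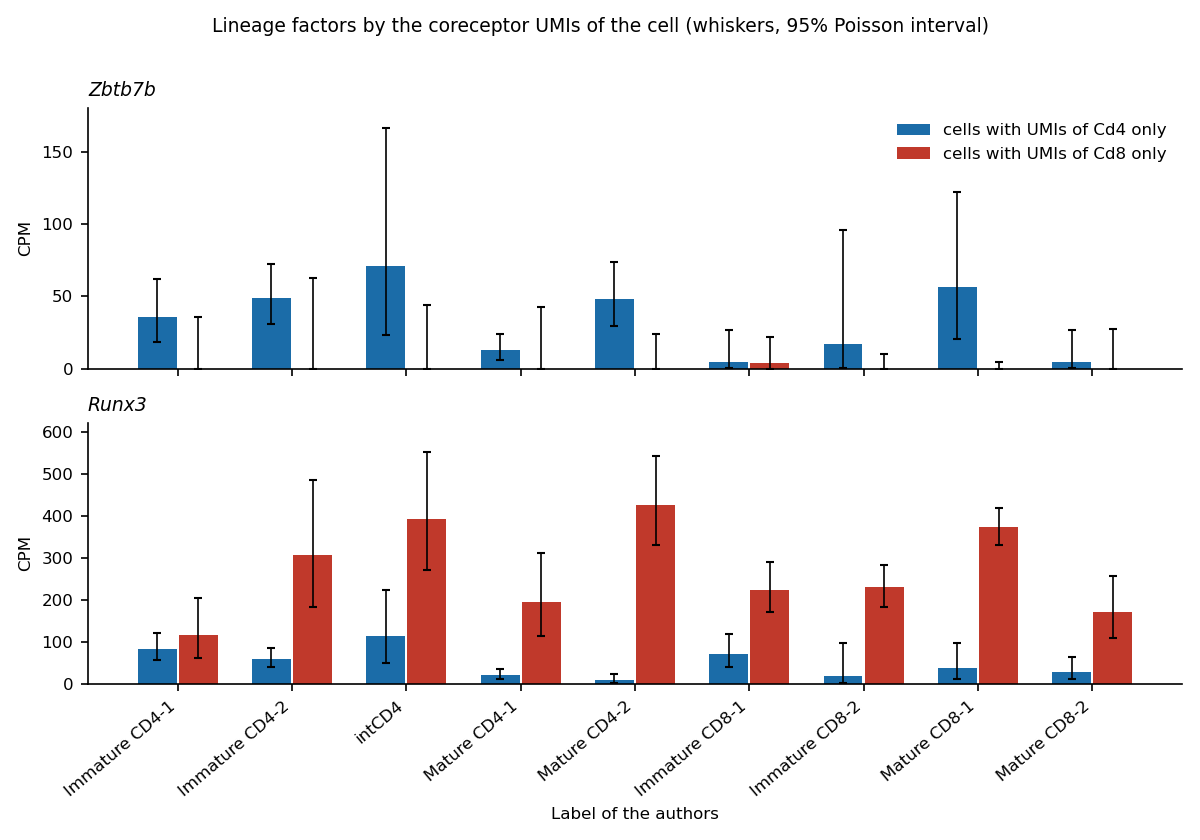
Zbtb7b (upper) and Runx3 (lower) as CPM on linear axes from 0 (y axis), in cells with UMIs of Cd4 only (blue) and of Cd8a or Cd8b only (red), for the 9 labels named CD4 or CD8 (x axis), with 95% Poisson whiskers. Runx3 is higher in the Cd8-only cells of every label shown, and Zbtb7b is at 0 in the Cd8-only cells of all labels except Immature CD8-1, where they hold 1 UMI.

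Summed over labels, both lineage factors differed by the coreceptor of the cell, and inside labels Runx3 did so in 8 of 9. Over the 9 labels named CD4 or CD8, 338 cells held Cd4 and no Cd8 UMI, and 239 held a Cd8 and no Cd4 UMI. Zbtb7b gave 80 UMIs in the Cd4-only cells, or 30.5 CPM (24.2 to 37.9), and 1 UMI in the Cd8-only cells, a ratio of 60.8 with an interval from 10.6 to 2433. Runx3 was at 41.9 CPM in the Cd4-only and 296 CPM in the Cd8-only cells, 7.05-fold higher (5.74 to 8.73). Median depths were 7086 and 7759 UMIs. The part of the labels and of cell pairs in these ratios was not tested, and the Runx3 ratio was 6.94 in cells without a Rag1 or Rag2 UMI.

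Cells whose coreceptor went against the name of their label are given next. In Mature CD4-2 the 20 Cd8-only cells had Runx3 at 425 CPM (329 to 541) and 0 Zbtb7b UMIs, while its 51 Cd4-only cells had Runx3 at 9.14 CPM and Zbtb7b at 48.0 CPM. The Runx3 ratio between them was 46.5 (17.3 to 176). In Mature CD8-1 the 11 Cd4-only cells held all 6 Zbtb7b UMIs of the label, at 56.1 CPM, and the 72 Cd8-only cells held 0. In Mature CD8-2 the 15 Cd4-only cells had Runx3 at 28.9 CPM and the 8 Cd8-only cells at 171 CPM, while Zbtb7b gave 1 UMI in the Cd4-only cells, 0 in the Cd8-only cells and 3 in the other cells. The interval of the Runx3 ratio included 1 in Immature CD4-1 alone of the 9 labels, where it was 1.40 (0.649 to 2.85). For Zbtb7b, with 0 UMIs set at 3, the interval of the ratio included 1 in all of the 9 labels except Mature CD8-1. Setting 0 UMIs at 3 lowers the ratio, so these intervals cannot show that a difference was absent. In Mature CD4-2 the CPM intervals themselves did not overlap, at 29.7 to 73.4 in Cd4-only and 0 to 23.8 in Cd8-only cells. In the other labels, apart from Mature CD8-1, they overlapped.

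The same 9 labels were also counted from the factors. Over all their cells, 338 held Cd4 only, 239 Cd8 only, 227 both and 99 neither. Of the 484 cells with a UMI of neither factor, 207 held Cd4 only, 74 Cd8 only, 136 both and 67 neither. Of 76 cells with Zbtb7b and no Runx3 UMI, 51 held Cd4 only, 0 Cd8 only, 14 both and 11 neither. Of 325 cells with Runx3 and no Zbtb7b UMI, 67 held Cd4 only, 164 Cd8 only, 73 both and 21 neither. UMIs of both factors were found in 18 cells, of which 13 held Cd4 only and 1 Cd8 only. A cell with Zbtb7b thus rarely held a Cd8 gene without Cd4, while Runx3 was found beside each coreceptor combination.

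The labels outside the CD4 and CD8 series added to the range. Among 70 AgoSel1 and 58 AgoSel2 cells, Cd4 was at 219 and 78.9 CPM, Cd8a at 213 and 211, and Runx3 at 85.9 and 181. Cd4 was 2.78-fold higher in AgoSel1 (1.98 to 3.94) and Runx3 2.10-fold higher in AgoSel2 (1.45 to 3.11), while the interval of the Cd8a ratio of 0.992 (0.761 to 1.30) included 1. In the 37 Treg cells Cd4 was at 193 CPM and Zbtb7b at 28.4 CPM. In the 128 gdT cells Cd4 was at its lowest, 58.8 CPM, Zbtb7b gave 1 UMI and Runx3 was at 102 CPM. The 411 cells that the authors called thymocytes in the stromal library, prepared with another enzyme, had Cd4 at 578 CPM, Cd8a at 868, Cd8b at 609, Runx3 at 31.5 and Zbtb7b at 3.50 CPM, without a stage.

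The genes whose levels were most like each member over the 21 labels came from 8570 genes and are given with Pearson's r of log2(CPM + 10), a description over labels that share 1 library. For Cd4 they were Aldh3a2, Angptl1, Kif13b and Acvr1c, at 0.78 to 0.76, all with their highest level in DP, and a Spearman correlation named 0 of the 4 again. For Cd8a they were Impdh1, Dnai4, Ralgps2 and Camta1, at 0.82 to 0.78. For Cd8b they were Gria3, a glutamate receptor gene, at 0.92, Gucy1b2, Glcci1 and Arl5c. For Zbtb7b they were Isg15, Rtp4, Xaf1 and Igtp, at 0.86 to 0.82, all 4 interferon-induced genes and all highest in intCD4. That label has 45 cells, and with labels of at least 50 cells 0 of the 4 were named again. For Runx3 they were Gsto1 at 0.74, mrpl24, Slx1b and Zfp260. Among the members, Cd8a and Cd8b reached 0.89, Cd4 and Cd8b 0.49, Cd4 and Zbtb7b 0.19, Cd4 and Runx3 -0.47 and Cd8a and Zbtb7b -0.49.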

How the data were processed

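One library of thymocytes was used, with 1 sample and no replicate, so comparisons describe this library; the stromal library served for background values. The authors deposited raw UMI counts for every gene in every barcode, with Cell Ranger (8.0.0) named in the header, and Seurat 5.3.0 and build mRatBN7.2 are named in the submitters' processing notes. A percent of mitochondrial UMIs per cell was deposited by the authors, per the file headers, and was not used. The annotation is not given in the sources used here. Members and gene lists were chosen with earlier results of these data known.

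UMIs were summed per label. Poisson, Clopper-Pearson and conditional binomial intervals are exact and cover counting error only. Thinning drew 1000 UMIs per cell with seed 7. A gene was called at 2-fold with at least 20 UMIs over both classes together. For these calls and medians, a class under 3 UMIs was set at 3 and never called the higher one. Printed ratios use the UMIs themselves, also for 1 to 3 UMIs, and set only 0 UMIs at 3. The 4 genes most like each member were named, with at least 200 UMIs and 20 CPM in a label, leaving out genes named only by an identifier, and list genes past 2-fold in the mature comparison. Named list genes of the other comparisons, and the splits by cluster and by Rag1 and Rag2, were chosen after their values were seen. On simulated data for the mature comparison, with 4000 genes, 99.4% of the tested 4-fold genes were recovered and 41 of 3423 unchanged genes were called. Doublets were not removed. Tables were read with pandas 2.3.3 in Python 3.11.15, computed with SciPy 1.17.1 and NumPy 2.4.6, and drawn with matplotlib 3.10.9.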

Additional observations from a re-analysis of the deposited data

How the results depend on the processing

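Of 119 recomputed values, 76 kept their value within its interval or limit, 43 moved, and 0 with an interval that excluded 1 turned direction. No paired analysis was possible because only 1 library holds these cells, and the cause of each move was not tested. The authors' clusters alone hold 1 mature cluster, so they give no mature comparison. By cluster, DP2 over DP1 was 1.28 for Cd4 and 1.13 for Cd8b. The first place itself changed for Cd8a, with DP-P3 over DP1 at 1.19, and for Runx3, with B+myeloid over Mature SP at 1.07. For Zbtb7b, Mature SP over B+myeloid was 1.79. With the mean of the cells' CPM, the highest label over the next was 2.56 for Cd4 and 1.29 for Cd8a, and the mature ratio was 0.393 for Cd8a and 0.608 for Cd8b. With cells thinned to 1000 UMIs, the highest label over the next was 2.19 for Cd4 and 1.24 for Cd8a. For Zbtb7b, Immature CD4-2 was then behind Pre-Treg at a ratio of 0.267, on 1 and 2 UMIs, too few for an order. The mature Cd8a ratio at this depth was 0.384. In cells without B cell and myeloid marker UMIs, the mature Zbtb7b ratio was 1.82, under 2-fold. In cells without Rag1 or Rag2 UMIs, a setting chosen after seeing the data, the mature ratio was 0.297 for Cd8a and 0.369 for Cd8b. With Mature CD8-1 alone, also chosen after seeing the data, the mature ratios were 4.03 for Cd4, 0.359 for Cd8a, 0.613 for Cd8b and 0.212 for Runx3, and with Mature CD4-1 alone 2.10, 0.206, 0.272 and 0.150. Genes past the fold numbered 577 in the mature comparison, with 1184 without a filter, 87 at 100 UMIs and 1819 at 1.5-fold. They numbered 383 in the immature comparison, with 952, 49 and 1315. For DP-sig over DP there were 2268, and 4419 at 1.5-fold. Of the 4 genes most like each member, a Spearman correlation named 0 again for Cd4, 2 for Cd8a, 1 for Zbtb7b and 2 for Runx3. Labels of at least 50 cells named 2 for Cd4, 2 for Cd8a, 2 for Cd8b, 0 for Zbtb7b and 1 for Runx3, and a pseudocount of 1 named 1 for Zbtb7b. At 2000 UMIs per cell, both coreceptors were found in 89.9% of DP cells, neither in 61.9% of DP-sig cells, Cd4 only in 32.2% of Mature CD4-1 and Cd8 only in 70.3% of Mature CD8-1 cells. Zbtb7b gave 0 to 33 UMIs per label, and 0 of its 20 neighbouring pairs were separated.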

Other observations

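Cd79a, which encodes a chain of the B cell receptor complex, was found in mature CD4 lineage labels without the other B cell genes. It was at 145 CPM (122 to 170) in Mature CD4-1, with a UMI in 40.5% of cells (31.7 to 49.8), at 163 CPM in Mature CD4-2, 271 in Pre-Treg and 445 CPM (375 to 525) in Treg, where 73.0% of cells held it. It was at 31.6 CPM in Mature CD8-1, 1.02 in Immature CD8-1 and 0.159 in DP. Cd79b and Ms4a1 gave 0 UMIs in Mature CD4-1 and in Mature CD4-2, and stood at 97.1 and 59.8 CPM in the B and myeloid cluster. In Treg, Cd79b gave 2 UMIs, Pax5 3 and Ms4a1 0. A filter on B cell and myeloid markers left 72 of 121 Mature CD4-1 and 9 of 37 Treg cells. The gene was singled out after its values were seen.

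Cd4 was found in myeloid marker cells of the thymocyte library and was near 0 in those of the stromal library. The 108 cells of the B and myeloid cluster with a myeloid and no B cell marker had Cd4 at 495 CPM (460 to 531), in 71.3% of cells (61.8 to 79.6), with Cd8a at 103 CPM in 36.1% of cells and Rag1 at 35.8 CPM. The 505 cells that the authors called myeloid in the stromal library, which was sorted for the absence of CD45, had Cd4 at 0.994 CPM (0.365 to 2.16) and in 0.990% of cells. Zbtb7b was at 12.6 CPM in the first group and 14.2 CPM in the second. Fibroblasts of the stromal library held Zbtb7b at 8.27 CPM (7.64 to 8.92) in 7.31% of 8216 cells, with Runx3 at 0.253 CPM.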
